A study of Mus musculus with 8 samples.

Results

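The genes described here are 8 leukocyte adhesion genes, Icam1, Icam2, Vcam1, Sele, Selp, Selplg, Itgam and Itgb2, out of 38293 genes in the deposited count table. They were taken by symbol, as a named set with no threshold on measured values, and were read in all 8 libraries; the set was chosen with earlier results of these data known. RNA carrying poly(A) tails was sequenced from the left ventricle of C57BL/6J mice 3 days after ischemia-reperfusion of the heart, a temporary tying-off of the left anterior descending artery. Every heart was injected 2 times with 10 µl of Upy-PEG, a supramolecular hydrogel used as a drug depot. In the 4 antimiR-195 libraries the gel carried antimiR-195, an inhibitor of the microRNA miR-195, and in the 4 hydrogel libraries the same gel carried no drug. All animals had the injury and the gel, so neither group stands for an uninjured or uninjected heart, and the age and sex of the mice and a scrambled oligonucleotide control are not described in the labels. No label states that each library came from its own animal, and p-values speak of the spread among these libraries, which may be technical.

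Leukocytes leave the blood in steps. Selectins on activated endothelium, P-selectin (Selp) and E-selectin (Sele), catch passing cells by sugars carried on PSGL-1 (Selplg), which slows them to a roll. Chemokines then switch on leukocyte integrins such as Mac-1, a pair made of the CD11b chain (Itgam) and the CD18 chain (Itgb2), and these hold on to the immunoglobulin-family receptors ICAM-1 and ICAM-2, while VCAM-1 holds leukocytes through the integrin VLA-4. Sele, Vcam1 and Icam1 are known to be switched on in endothelium by tumour necrosis factor and interleukin-1 through the transcription factor NF-kB. Icam2 is carried by resting endothelium. P-selectin is also stored in platelets, and Vcam1 is also made by cells other than endothelium.

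The 5 endothelial-side genes and the 3 leukocyte-side genes lie on separate chromosomes except for Sele and Selp. In GRCm38, Sele lies on chromosome 1 at 164048234 to 164057677 and Selp on chromosome 1 at 164115264 to 164150026, both on the plus strand. Icam1 is on chromosome 9 at 21015985 to 21028817, Icam2 on chromosome 11 at 106377656 to 106388075 and Vcam1 on chromosome 3 at 116109949 to 116129688. Selplg is on chromosome 5 at 113818536 to 113832644, Itgam on chromosome 7 at 128062640 to 128118491 and Itgb2 on chromosome 10 at 77530252 to 77565708. All 8 are annotated as protein-coding.

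The drug's target and the places where that microRNA could pair in these mRNAs are shown first, since the drug is an inhibitor of the microRNA. Mature sequences are RefSeq's on GRCm38.p6, 5′ to 3′, with the seed (bases 2 to 8) in capitals, for miR-195a-5p and 5 relatives that have the same seed.
miR-195a-5p: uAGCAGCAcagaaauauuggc
miR-15a-5p: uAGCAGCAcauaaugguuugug
miR-15b-5p: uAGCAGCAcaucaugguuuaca
miR-16-5p: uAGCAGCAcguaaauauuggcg
miR-497a-5p: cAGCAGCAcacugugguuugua
miR-322-5p: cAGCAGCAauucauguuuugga
miR-195a-5p lies on chromosome 11 at 70235062 to 70235082, plus strand.

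Matches to that seed, TGCTGCT (7mer-m8), GCTGCTA (7mer-A1) or both together as TGCTGCTA (8mer), were sought on the sense strand of the longest annotated 3′ UTR of each gene. Of the 8 genes, 3 held a match: Icam1, Selp and Itgam. Among all tested genes with a 3′ UTR, 3671 of 12874 held one, or 28.5%. Icam1 held 2 matches that overlap within a run of TGC repeats, at positions 47 and 50 of its 871-base 3′ UTR. Selp held 1 at position 573 of 1008 bases and Itgam held 1 at position 331 of 1114 bases. Icam2, Vcam1, Sele, Selplg and Itgb2 held none of these words. Each line has its own match in capitals, and the stretches lie in GRCm38 on the plus strand.
Icam1, position 47, chr9:21027978-21028001: ctgcagggcaacagcTGCTGCTgc
Icam1, position 50, chr9:21027981-21028004: cagggcaacagctgcTGCTGCTtt
Selp, chr1:164149576-164149599: ggttgtttacacctcTGCTGCTga
Itgam, chr7:128117693-128117716: tagtgtgttagggaaGCTGCTAat
A match is a description of letters and was not tested as a binding site.

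RefSeq's promoter table held 4 of the 8 genes, Icam1, Sele, Selp and Itgam. The 250 bases before the start are printed for Icam1 and Sele, both cytokine-induced, because their levels ran in opposite directions in 1 library described below. Capitals mark GGANNTTCC, an NF-kB-like word, the AP-1 word TGACTCA and the TATA word TATAAA, all sought on both strands. None of these marked stretches overlaps another. The first word was chosen after the promoters had been read, so its presence here supports nothing.
Icam1, GRCm38.p6 chr9:21015690-21015939, plus strand: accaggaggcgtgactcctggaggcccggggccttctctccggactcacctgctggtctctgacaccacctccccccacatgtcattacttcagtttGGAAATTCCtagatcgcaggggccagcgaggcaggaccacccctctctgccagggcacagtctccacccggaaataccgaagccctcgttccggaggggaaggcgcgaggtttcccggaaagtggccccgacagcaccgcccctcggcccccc
Sele, GRCm38.p6 chr1:164047984-164048233, plus strand: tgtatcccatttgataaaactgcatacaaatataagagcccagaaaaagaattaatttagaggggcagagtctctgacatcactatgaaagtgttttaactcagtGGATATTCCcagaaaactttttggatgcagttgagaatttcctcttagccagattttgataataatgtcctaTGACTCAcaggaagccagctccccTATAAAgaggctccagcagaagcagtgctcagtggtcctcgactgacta
GGANNTTCC stood at -153 to -145 in Icam1 and at -145 to -137 in Sele, counted from the start, and in 3.56% of 27025 promoters of that length. TGACTCA stood in 4.43% of them and TATAAA in 13.0%, and of the 4 adhesion promoters only Sele held these 2 words. The classical 10-letter NF-kB consensus stood in 7.01% of all promoters and in none of the 4. The promoter of Icam1 was 65.2% GC and that of Sele 40.4% GC, against a median of 52.0% over all promoters.

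Total gene counts were 16872968 to 22751753 per library. AntimiR-195 replicate 2 stood apart from the rest: across genes, its log2 CPM correlated with that of the others at 0.944 to 0.970, beside 0.978 to 0.991 for the remaining pairs. Its departure followed gene length. When genes were split by length into 4 equal classes, the shortest class had a median of 0.48 on the log2 scale above the other antimiR-195 libraries, and the longest class a median of -0.36. Each of the other 7 libraries stayed within -0.20 and 0.20 in the shortest class and within -0.16 and 0.17 in the longest, set against its own group without antimiR-195 replicate 2. Defining markers of heart tissue were present: the cardiomyocyte gene Myh6 had 19150 to 23668 CPM with antimiR-195 and 20343 to 22467 CPM with hydrogel alone, and the endothelial gene Pecam1 had 134 to 172 CPM with antimiR-195 and 144 to 166 CPM with hydrogel alone.

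Setting antimiR-195 against drug-free hydrogel asked whether adhesion genes of vessel wall and leukocytes differed when the gel carried the inhibitor. None of the 8 passed edgeR's quasi-likelihood test at an adjusted p below 0.05, where 0% of all 13972 tested genes were called higher and 0% lower. DESeq2 also called 0 of all genes, with 193 at an unadjusted p below 0.05, beside 178 in edgeR. All 8 adhesion genes passed the filter on low counts. Their unadjusted p-values ran from 0.234 to 0.963 and the adjusted p of each was 0.9999. None reached an unadjusted p below 0.05, against 1.27% of all tested genes, and none had groups that did not overlap, against 1.07%. Their log2 fold changes were positive in 3 and negative in 5, with a median of -0.04, beside a median of 0.01 over all tested genes, of which 52.4% were positive. The 95% intervals of the 8 fold changes ran from 0.619-fold to 1.58-fold at the widest, both bounds being those of Sele. The genes with a seed match stood at 0.07 for Icam1, 0.06 for Selp and -0.13 for Itgam, beside a median of -0.0045 over all tested genes with a match and 0.01 over those without. In bulk tissue, fewer cells of a type and less RNA per cell cannot be told apart.

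**Figure D1:**
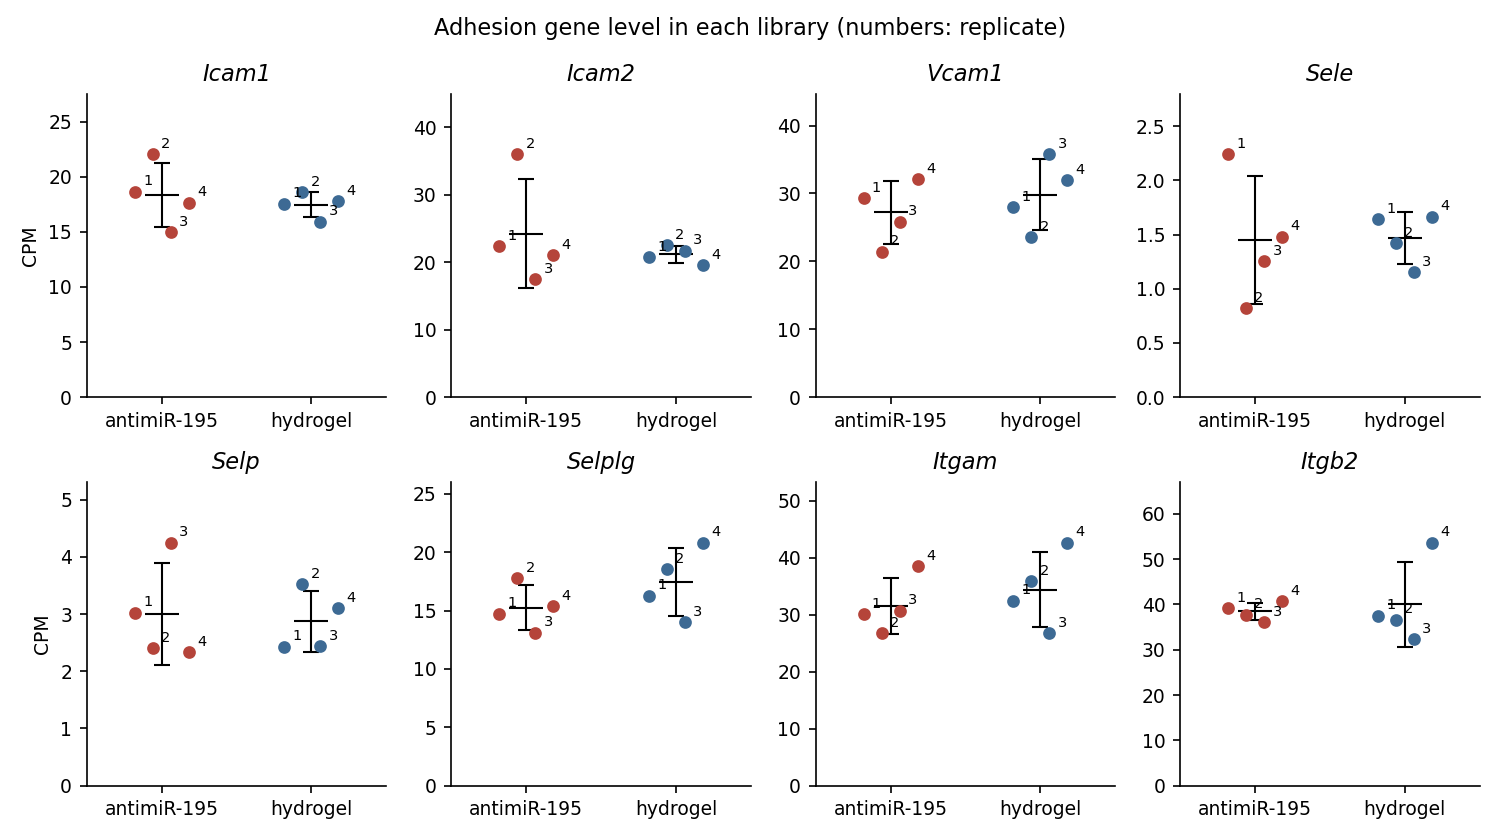
CPM (y axis, linear from 0) of each adhesion gene in the 4 antimiR-195 libraries (red, left) and the 4 hydrogel libraries (blue, right); numbers are replicates, and bars are mean ± SD. The groups overlap in every panel, Icam2 is highest in antimiR-195 replicate 2 at 36.0 CPM, and Itgb2 is highest in hydrogel replicate 4 at 53.6 CPM.

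The selectins were the scarcest of the 8. Sele had 2.24, 0.821, 1.26 and 1.48 CPM in antimiR-195 replicates 1 to 4, against 1.64, 1.42, 1.15 and 1.67 CPM in hydrogel replicates 1 to 4. The highest and the lowest libraries were both in the antimiR-195 group, and the hydrogel libraries lay between them. These values rest on 15 to 40 counts per library. In antimiR-195 replicate 1 the exact Poisson 95% interval was 1.60 to 3.05 CPM, and in antimiR-195 replicate 2 it was 0.459 to 1.35 CPM. These are the extremes of the 8 libraries, and the intervals cover counting error only. The mean was 1.45 ± 0.595 CPM with antimiR-195 and 1.47 ± 0.238 CPM with hydrogel alone (SD, n = 4 each), a log2 fold change of -0.01 ± 0.31 (SE). Leaving out antimiR-195 replicate 1 gave -0.31, and leaving out antimiR-195 replicate 2 gave 0.18. It was also positive without antimiR-195 replicate 3 (0.05), hydrogel replicate 1 (0.03) or hydrogel replicate 4 (0.04).

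Selp had 3.03, 2.41, 4.25 and 2.34 CPM in antimiR-195 replicates 1 to 4, against 2.43, 3.52, 2.45 and 3.11 CPM in hydrogel replicates 1 to 4. AntimiR-195 replicate 3 was the highest library and antimiR-195 replicate 4 the lowest. The means were 3.00 ± 0.886 CPM with antimiR-195 and 2.88 ± 0.532 CPM with hydrogel alone (SD, n = 4 each), a log2 fold change of 0.06 ± 0.24. It was -0.15 without antimiR-195 replicate 3, -0.02 without hydrogel replicate 1 and -0.01 without hydrogel replicate 3. The selectins are neighbours on chromosome 1. Per length, the ratio of Selp to Sele RPKM was 0.891 to 2.23 with antimiR-195 and 0.979 to 1.64 with hydrogel alone. This ratio rests on 41 to 72 counts of Selp and 15 to 40 counts of Sele per library. The part of counting error in its spread was not tested. Platelet markers summed to 63.6 to 188 CPM with antimiR-195, highest in replicate 2 where Selp was low, and to 86.6 to 107 CPM with hydrogel alone. Most of that sum was Pf4, at 170 of the 188 CPM in antimiR-195 replicate 2, so it says little of the other platelet markers.

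Icam1, the ICAM-1 receptor for leukocyte integrins, varied least of the 8 genes, by 1.47-fold between its highest and lowest library. It had 18.7, 22.0, 15.0 and 17.7 CPM in antimiR-195 replicates 1 to 4, against 17.6, 18.6, 15.9 and 17.8 CPM in hydrogel replicates 1 to 4. Both extremes were antimiR-195 libraries, replicate 2 the highest and replicate 3 the lowest. The log2 fold change was 0.07 ± 0.13, with a 95% interval of -0.23 to 0.37, and it was -0.04 without antimiR-195 replicate 2.

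Icam2, the receptor of resting endothelium, was highest in the same library. It had 22.4, 36.0, 17.5 and 21.0 CPM in antimiR-195 replicates 1 to 4, against 20.8, 22.5, 21.7 and 19.5 CPM in hydrogel replicates 1 to 4. AntimiR-195 replicate 2 was above all other libraries, and the hydrogel libraries sat close together. The coefficient of variation was 33.5% with antimiR-195 and 6.09% with hydrogel alone. The log2 fold change was 0.20 ± 0.20 with all libraries and -0.07 without antimiR-195 replicate 2.

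Vcam1 ran the other way in that library. It had 29.4, 21.4, 25.9 and 32.1 CPM in antimiR-195 replicates 1 to 4, against 28.0, 23.5, 35.8 and 31.9 CPM in hydrogel replicates 1 to 4. AntimiR-195 replicate 2 was the lowest library and hydrogel replicate 3 the highest. The log2 fold change was -0.13 ± 0.16, with a 95% interval of -0.49 to 0.23, and stayed negative without any 1 library, from -0.23 to -0.03. The value of -0.03 was the one without hydrogel replicate 3.

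**Figure D2:**
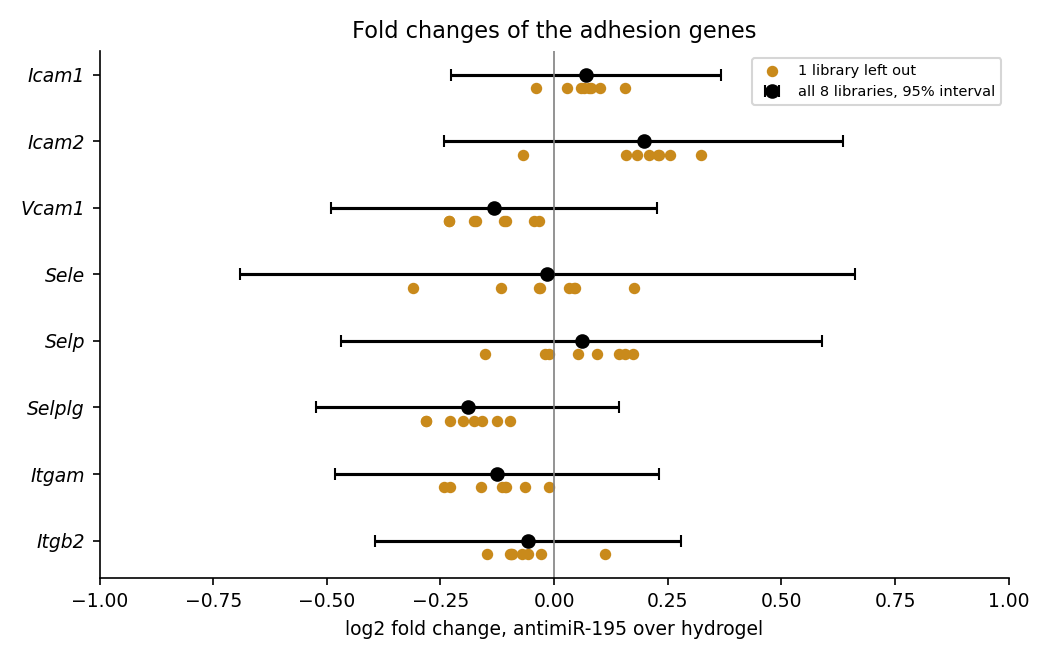
Log2 fold change of antimiR-195 over hydrogel (x axis) for each gene, with its 95% interval over all 8 libraries (black) and the values with 1 library left out (orange). Every interval spans 0, and the left-out values fall on both sides of 0 for Icam1, Icam2, Sele, Selp and Itgb2.

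These departures of antimiR-195 replicate 2 can be set beside gene length, taken from the deposited RPKM values. Icam2, the shortest of the 8 at 1904 bases, was 0.83 above the other antimiR-195 libraries on the log2 CPM scale. Icam1 (2540 bases) was 0.37 above them and Selplg (2604 bases) 0.30 above them. Itgb2 (3052 bases) was at -0.03, Vcam1 (3398 bases) at -0.43, Selp (4413 bases) at -0.36 and Itgam (6377 bases) at -0.30. Sele (2912 bases) was at -0.89, on 15 counts in that library. The 3 shortest genes were thus above the other antimiR-195 libraries and the 5 longer ones below, with no steady order among those 5. When each library's trend with length was subtracted, an alternative chosen after seeing the data, the log2 fold change of Icam2 was 0.13 ± 0.15, beside 0.14 ± 0.19 in the same limma fit without that subtraction. The part of length or RNA quality in these differences was not tested further.

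**Figure D3:**
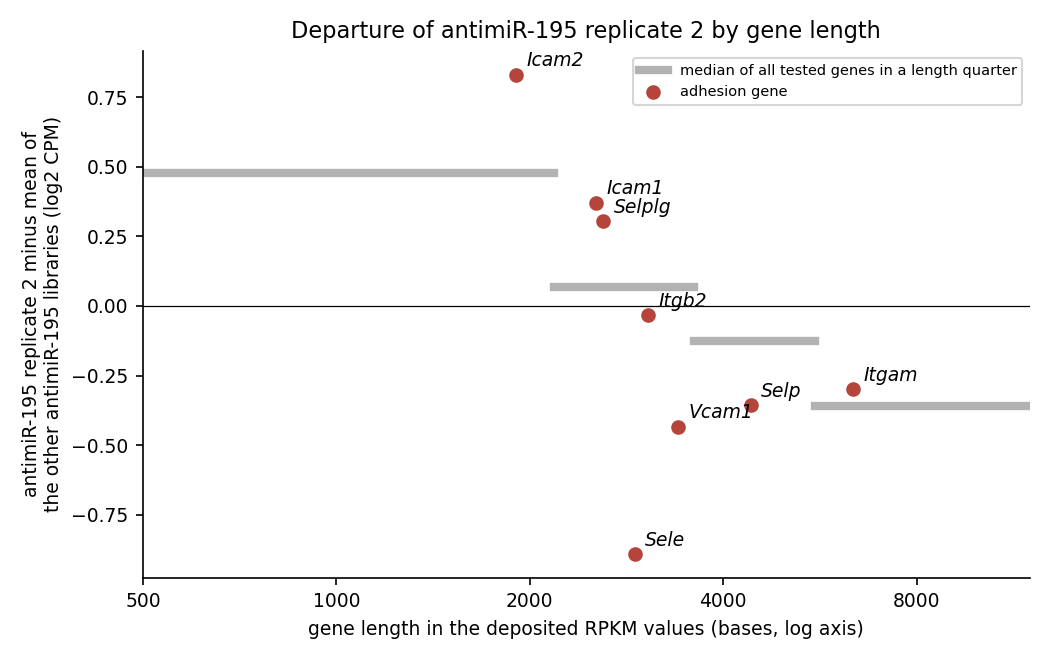
Log2 CPM of antimiR-195 replicate 2 minus the mean of the other 3 antimiR-195 libraries (y axis) against gene length in bases (x axis, log scale). Red points are the adhesion genes and grey bars the medians of all tested genes in each of 4 length classes, whose outer ends lie beyond the axis; Icam2 lies at 0.83 and Sele at -0.89.

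The leukocyte-side genes had their highest library in the hydrogel group. Selplg, which encodes the selectin ligand PSGL-1, had 14.7, 17.8, 13.1 and 15.4 CPM in antimiR-195 replicates 1 to 4, against 16.3, 18.5, 14.0 and 20.8 CPM in hydrogel replicates 1 to 4. Hydrogel replicate 4 was the highest library and antimiR-195 replicate 3 the lowest. The log2 fold change was -0.19 ± 0.15, with a 95% interval of -0.52 to 0.14 and an unadjusted p of 0.234, the smallest of the 8. It was negative without any 1 library, from -0.28 without hydrogel replicate 3 to -0.10 without hydrogel replicate 4.

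Itgam, the CD11b chain of monocytes, macrophages and neutrophils, had 30.1, 26.7, 30.7 and 38.5 CPM in antimiR-195 replicates 1 to 4, against 32.5, 35.8, 26.7 and 42.6 CPM in hydrogel replicates 1 to 4. Its log2 fold change was -0.13 ± 0.16, and -0.01 without hydrogel replicate 4. Itgb2, the CD18 chain shared by several leukocyte integrins, had 39.2, 37.7, 36.1 and 40.7 CPM in antimiR-195 replicates 1 to 4, against 37.5, 36.7, 32.3 and 53.6 CPM in hydrogel replicates 1 to 4. The antimiR-195 libraries were close together and all lay inside the hydrogel range. The log2 fold change of Itgb2 was -0.06 ± 0.15, and 0.11 without hydrogel replicate 4. That library had the highest level of all 3 leukocyte-side genes, while the sum of 13 monocyte and macrophage markers was second highest there, at 2240 CPM in antimiR-195 replicate 2 against 2098 CPM in hydrogel replicate 4. Of these 13 markers, 7 had their highest library in the antimiR-195 group and 6 in the hydrogel group. Whether cell content sets these values was not tested.

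By mean RPKM over all 8 libraries, a level per length, Itgb2 stood first, at 12.7 ± 0.677 RPKM with antimiR-195 and 13.1 ± 3.47 RPKM with hydrogel alone (SD, n = 4 each). Icam2 followed at 12.9 ± 4.61 RPKM with antimiR-195 and 10.98 ± 0.428 RPKM with hydrogel alone, below Itgb2 in 6 of 8 libraries but above it in the mean of the antimiR-195 group. Next came Vcam1 at 8.06 ± 1.27 RPKM with antimiR-195 and 8.68 ± 1.48 RPKM with hydrogel alone and Icam1 at 7.30 ± 1.32 RPKM with antimiR-195 and 6.82 ± 0.577 RPKM with hydrogel alone, Vcam1 being the higher in 6 of 8 libraries. Selplg had 5.92 ± 0.859 RPKM with antimiR-195 and 6.64 ± 1.29 RPKM with hydrogel alone, and Itgam 4.98 ± 0.692 RPKM with antimiR-195 and 5.37 ± 1.19 RPKM with hydrogel alone. Below these stood Selp at 0.685 ± 0.194 RPKM with antimiR-195 and 0.646 ± 0.125 RPKM with hydrogel alone and Sele at 0.502 ± 0.209 RPKM with antimiR-195 and 0.501 ± 0.0958 RPKM with hydrogel alone. Only the steps from Icam2 to Vcam1 and from Itgam to Selp held in all 8 libraries, so the other neighbours in this order were not separated in every library. The integrin chains kept a narrow ratio: Itgb2 over Itgam RPKM was 2.58 ± 0.319 with antimiR-195 and 2.43 ± 0.211 with hydrogel alone.

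Likeness of pattern was measured as the root-mean-square difference between log2 CPM profiles over the 8 libraries, each centred on its mean. Among the 8 genes the closest pair was Itgam with Itgb2, at 0.14, followed by Selplg with Itgb2 at 0.16. Icam1 with Icam2 and Icam1 with Selplg came next, both at 0.17. Such differences are small where profiles vary little, and the root-mean-square of the centred Icam1 profile itself was 0.15. The farthest was Icam2 with Sele, at 0.58. Over all tested genes that had a name, the nearest profile to Icam1 was that of Mfsd10 at 0.02, and the nearest to Icam2 was that of Srrd at 0.06. The nearest to Vcam1 was B4galt4 at 0.06, to Sele Gm12966 at 0.15 and to Selp Errfi1 at 0.08. On the leukocyte side the nearest to Selplg was Sash3 at 0.04, to Itgam Scyl3 at 0.08 and to Itgb2 Inpp5d at 0.08.

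To set each gene beside a cell type that can carry it, though not always the only one, a marker mean was subtracted from its log2 CPM. It was the mean log2 CPM of 14 endothelial markers, or of 13 monocyte and macrophage markers for Selplg, Itgam and Itgb2. Selplg lay lower against those markers in every antimiR-195 library, at -1.37, -1.55, -1.44 and -1.37 in replicates 1 to 4, than in every hydrogel library, at -1.24, -1.12, -1.33 and -1.29. The gap between the nearest libraries was small. The difference was -0.19 on the log2 scale, with a two-sided exact permutation p of 0.0286, the smallest that 70 assignments of the libraries can give, and 0.229 when adjusted over the 8 genes. With so few assignments a single gene could not pass that adjustment. Against 8 tested neutrophil markers in place of the macrophage list the difference was -0.23, with an exact permutation p of 0.314. The other 7 genes had differences of -0.14 to 0.13 and exact permutation p-values of 0.514 to 0.971. Without antimiR-195 replicate 2, Itgam was at 0.07 and Itgb2 at 0.09 relative to these markers, beside -0.12 and -0.04 with all libraries.

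**Figure D4:**
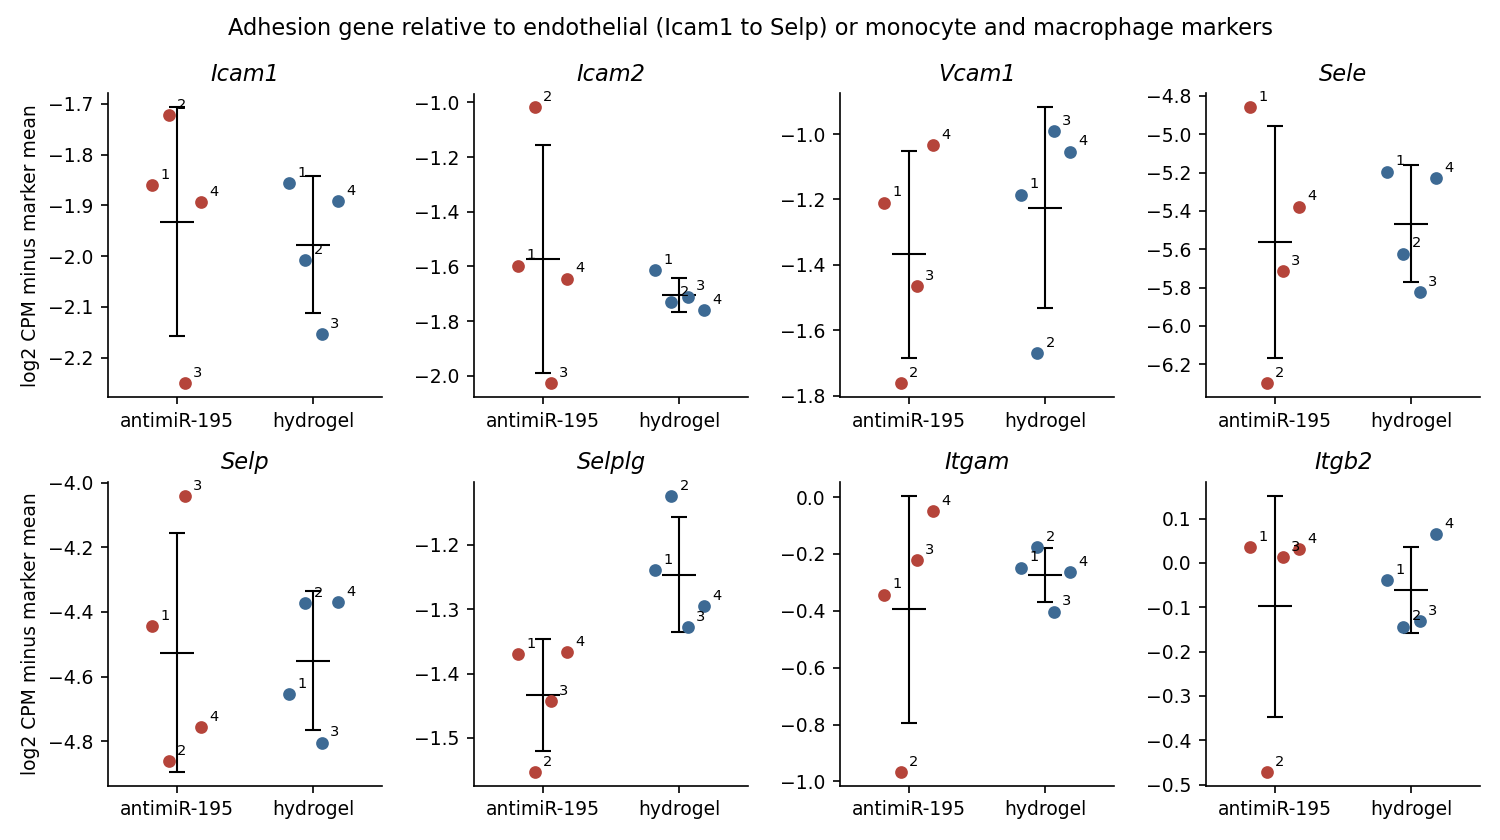
Log2 CPM of each gene minus the mean log2 CPM of its marker list (y axis; endothelial markers for Icam1 to Selp, monocyte and macrophage markers for Selplg, Itgam and Itgb2) in antimiR-195 libraries (red, left) and hydrogel libraries (blue, right), with mean ± SD. Only in the Selplg panel do the groups not overlap, with -1.37 as the highest antimiR-195 value and -1.33 as the lowest hydrogel value. In plain CPM the Selplg groups overlap, and the share of all genes separated relative to markers was not computed.

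Marker lists of the cells that could carry these genes gave the following levels. Monocyte and macrophage markers summed to 1305 to 2240 CPM with antimiR-195, highest in replicate 2, and 1547 to 2098 CPM with hydrogel alone. The median log2 fold change of the 13 markers was -0.03, with 5 above 0 and 8 below; without antimiR-195 replicate 2 it was -0.21, with 3 above 0 and 10 below. Neutrophil markers summed to 58.5 to 128 CPM with antimiR-195 and 62.1 to 113 CPM with hydrogel alone. Lcn2 had the highest mean of them, at 37.0 ± 7.66 CPM with antimiR-195 and 54.9 ± 23.4 CPM with hydrogel alone, so the sum leans on that gene. The median log2 fold change of the neutrophil markers was 0.15 over the 8 tested of 12, or -0.22 without antimiR-195 replicate 2. Ly6g had 0 counts in all libraries. S100a8, a neutrophil calcium-binding protein, had 20.5 CPM in antimiR-195 replicate 2, beside 4.37 to 5.38 CPM in the other antimiR-195 libraries and 5.54 to 6.88 CPM with hydrogel alone. Endothelial markers summed to 1178 to 1317 CPM with antimiR-195 and 1127 to 1308 CPM with hydrogel alone, with 7 of 14 log2 fold changes positive and a median of 0.01. Medians were 0.22 over 4 tested platelet markers and 0.22 over 4 tested T, NK and B cell markers, all positive in both; without antimiR-195 replicate 2 they were -0.0054 and 0.04, with 2 of 4 positive in each list. Cardiomyocyte markers had a median of 0.03 and fibroblast markers one of -0.04. No marker of these lists passed the threshold, and 1 reached an unadjusted p below 0.05 in edgeR, beside 1.27% of all tested genes. This was Ccr2, the chemokine receptor of inflammatory monocytes, with a log2 fold change of -0.32 ± 0.13. It had 29.4 ± 2.37 CPM with antimiR-195 and 36.7 ± 5.86 CPM with hydrogel alone (SD, n = 4 each). Ly6c2, of the same monocyte and macrophage list, ran the other way, at 0.84 ± 0.38 with an unadjusted p of 0.0525 in edgeR. Without antimiR-195 replicate 2, Ccr2 was at -0.34 and Ly6c2 at 0.47. The part of cell content in the adhesion values was not tested.

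Of 29 further adhesion-cascade genes listed for rolling, firm adhesion and passage through the vessel wall, 23 were tested, 0 passed in either direction in edgeR, 0 reached an unadjusted p below 0.05, and 0 had groups that did not overlap. There were 9 positive and 14 negative log2 fold changes, with a median of -0.03. St3gal4, a sialyltransferase that helps build selectin ligands, had the smallest p of them, with 23.9 ± 2.06 CPM with antimiR-195 and 28.4 ± 2.90 CPM with hydrogel alone (SD, n = 4 each), a log2 fold change of -0.25 ± 0.12. Ackr1, the chemokine-binding receptor of venular endothelium, had 0.792 ± 0.251 CPM with antimiR-195 and 1.09 ± 0.182 CPM with hydrogel alone, giving -0.46 ± 0.29 on the log2 scale; leaving out antimiR-195 replicate 2 gave -0.70. Cd99l2, a protein of endothelial junctions, had a log2 fold change of -0.15 ± 0.11. Itga4, the integrin chain that binds VCAM-1, had 7.47 ± 1.30 CPM with antimiR-195 and 6.86 ± 2.61 CPM with hydrogel alone. The lymph node addressin Glycam1 had 0 counts in all libraries, and Madcam1, a mucosal vessel receptor, had 1 count, in hydrogel replicate 3.

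Genes of the NF-kB and cytokine arm, which is known to induce these receptors, were set beside them. Tnf, which encodes tumour necrosis factor, had 1.46, 2.19, 1.02 and 1.20 CPM in antimiR-195 replicates 1 to 4, against 0.635, 0.831, 0.646 and 0.611 CPM in hydrogel replicates 1 to 4. Every antimiR-195 library was above every hydrogel library, a separation that 1.07% of all tested genes had in 1 direction or the other. These values rest on few counts, 17 to 40 per library with antimiR-195 and 11 to 17 with hydrogel alone. The log2 fold change of Tnf was 1.10 ± 0.30, or 0.83 without antimiR-195 replicate 2, but the adjusted p from edgeR was 0.9999. The monocyte chemokine Ccl2 was at 0.49 ± 0.21, or 0.25 without antimiR-195 replicate 2, and the NF-kB regulator Bcl3 at 0.42 ± 0.21, or 0.18 without it. Over the 17 tested of 18 genes of the NF-kB and cytokine list, 11 log2 fold changes were positive and 6 negative, with a median of 0.11; without antimiR-195 replicate 2 there were 8 positive and 9 negative, with a median of -0.0014. In edgeR 0 of them passed, and 2, Tnf and Ccl2, reached an unadjusted p below 0.05, against 1.27% of all tested genes. The inhibitor gene Nfkbia was at -0.06 ± 0.12 and the feedback gene Tnfaip3 at -0.10 ± 0.28, beside 0.07 ± 0.13 for Icam1, -0.13 ± 0.16 for Vcam1 and -0.01 ± 0.31 for Sele. The difference between the value of Tnf and those of the adhesion genes was not tested.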

How the data were processed

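Per the labels' protocols, TRIzol-extracted RNA went into a TruSeq stranded mRNA kit. STAR, HTSeq, DESeq and GRCm38 are named, per the submitters' processing notes; the sources used here do not give versions, annotation release or strand setting, so overlapping and antisense genes are uncertain. The authors deposited whole-number HTSeq counts per gene and RPKM values; the series table and the library files differed in 0 cells. Lines naming no gene were left out. Of the uniquely aligned reads, 6.38% to 7.55% fell outside genes and 0.772% to 1.05% were ambiguous. The multiply aligned line held 42.1% to 47.8% of all lines. The values of 6.38%, 1.05% and 47.8% were all those of antimiR-195 replicate 2. Of 38293 identifiers 36345 had a GENCODE M21 name.

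Genes passing filterByExpr (13972) were scaled by TMM and tested over all 8 libraries without covariates by edgeR's quasi-likelihood test (edgeR 4.0.16, R 4.3.3), two-sided, with Benjamini-Hochberg adjustment over all tested genes and a threshold of 0.05. CPM was computed from the deposited counts on normalized library sizes; log2 CPM used a prior count of 2. Depth was 16872968 to 22751753 gene counts per library; Poisson intervals cover counting error only. Exact permutation tests were run on single values per library. Alternatives used DESeq2 1.42.0, limma 3.58.1 (on log2 of the deposited RPKM values plus 0.1 or 1, and on log2 CPM), other scaling factors, no low-count filter, and each library left out. The edgeR fit was tested on simulated counts. Members and lists were chosen with earlier results of these data known. Named genes are the 8 genes, up to 3 genes of each list with the smallest p, the nearest profiles and defining markers; Itga4, Nfkbia, Tnfaip3, Madcam1 and Glycam1 were chosen after their values were seen. UTRs come from GENCODE M21 (longest per gene, at least 50 bases) and promoters and miRNAs from RefSeq. Replicates were numbered in accession order. Some genes of these lists are not reported here.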

Additional observations from a re-analysis of the deposited data

Results flagged for a closer look

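Itgb2 relative to the monocyte and macrophage markers stood apart in antimiR-195 replicate 2, at -0.47 on the log2 scale, beside 0.01 to 0.04 in the other 3 antimiR-195 libraries. The gap was 0.955 of the range of its group, above Dixon's 95% critical value for 4 samples. Chance flags about 1 in 20 groups, and this was 1 flag in 36 groups of 4 libraries. The marker sum was highest of all libraries there, at 2240 CPM, while the level of Itgb2 itself was 37.7 CPM, inside the range of the others. The part of the length trend of that library in this value was not tested.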

How the results depend on the processing

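No alternative brought any of the 8 genes, or any other gene, past the threshold: 0 genes were called higher and 0 lower in edgeR, DESeq2 and limma under every setting run. Genes at an unadjusted p below 0.05 numbered 178, with 428 when the low-count filter was dropped and 104 to 352 with 1 library left out. No direction of the 8 fold changes changed with tool, scaling, filter, pseudocount or removal of the length trend, the last chosen after seeing the data. Of 216 alternative values with a direction, 21 turned it, and all 21 came from leaving out 1 library. The 216 include the neutrophil-list setting for the 5 endothelial-side genes, whose values that setting leaves unchanged, so these could not turn. With each library left out in turn, the log2 fold change ran from -0.040 to 0.16 for Icam1, -0.068 to 0.32 for Icam2, -0.31 to 0.18 for Sele, -0.15 to 0.17 for Selp and -0.15 to 0.11 for Itgb2. Relative to markers the range was -0.024 to 0.15 for Icam1, -0.053 to 0.28 for Icam2, -0.33 to 0.15 for Sele, -0.14 to 0.14 for Selp, -0.24 to 0.068 for Itgam and -0.080 to 0.089 for Itgb2; the cause was not tested. With 3 libraries against 4, the smallest exact permutation p is 0.0571, so those fits could not pass. Sele rested on 15 to 40 counts a library. No paired analysis was possible because the labels give no replicate numbers shared by the groups.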
